A study of Mus musculus with 8 samples.

Results

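Cell cycle and proliferation genes were examined in bulk RNA-seq counts from 8 subcutaneous MC38 tumors. The 40 genes are a list of 25 G2 and mitosis (G2/M) genes and 15 DNA replication (S phase) genes, and all 40 were present among the 24421 genes of the raw count table. The MC38 line derives from a colon adenocarcinoma of the mouse. Female B6 Kaede mice, aged 9 weeks, each received 250000 of these cells, and the mouse's own cells carry a fluorescent protein that turns from green to red under violet light. In the photoconverted group (4 tumors) light of 405 nm was applied to the tumor for 3 min, 10 days after injection and at a diameter near 5 mm, and in the control group (4 tumors) it was not. All mice were of the same Kaede strain, and all tumors were collected 5 h after the time of light exposure. The RNA came from whole tumors, so cancer cells and host cells were measured together, and fewer dividing cells cannot be told apart from less cell cycle RNA per cell. The comparison of the groups asks whether the light used for labeling altered the tumor itself.

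A dividing cell first copies its DNA and then segregates the copies. Origins of replication are licensed in G1 by Cdc6 and Cdt1, which load the MCM helicase, and E2F transcription factors with cyclin E start S phase, in which ribonucleotide reductase, thymidylate synthase and the sliding clamp Pcna serve DNA synthesis. Cdk1 with A- and B-type cyclins then drives entry into mitosis, where Aurora and Polo-like kinases and kinesins build the spindle, the checkpoint kinases hold anaphase back, and Cdc20 and Ube2c release it. Promoters of S phase genes are known for E2F sites, and those of mitotic genes for a CHR element together with CCAAT boxes, which bind the DREAM and MuvB complexes and NF-Y.

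The stretches of 180 bases before the RefSeq transcription start (build GRCm38.p6) are shown for 3 genes of each phase that carry these elements, because the results compare the phases they stand for. Capitals mark every match on either strand to the CHR words TTTGAA or else TTTAAA, to the CCAAT box, and to an E2F word, which is TTCCCGC or else TTGGCGC or else TTCGCGC or else TTGCCGC. None of these stretches overlaps a gene of the GENCODE M21 annotation.
Top2a (chr11:99024190-99024369, minus strand): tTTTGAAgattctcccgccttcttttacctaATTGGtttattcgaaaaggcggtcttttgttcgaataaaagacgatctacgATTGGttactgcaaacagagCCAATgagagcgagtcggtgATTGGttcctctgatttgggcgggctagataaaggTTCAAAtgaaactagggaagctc
Mki67 (chr7:135716380-135716559, minus strand): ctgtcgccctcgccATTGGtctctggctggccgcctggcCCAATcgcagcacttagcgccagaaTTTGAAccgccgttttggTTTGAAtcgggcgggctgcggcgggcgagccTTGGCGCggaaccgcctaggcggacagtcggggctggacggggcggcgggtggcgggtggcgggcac
Kif11 (chr19:37376202-37376381, plus strand): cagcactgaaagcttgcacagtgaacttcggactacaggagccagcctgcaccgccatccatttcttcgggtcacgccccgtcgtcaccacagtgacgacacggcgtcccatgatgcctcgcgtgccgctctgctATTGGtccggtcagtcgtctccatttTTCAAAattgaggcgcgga
Mcm5 (chr8:75109329-75109508, plus strand): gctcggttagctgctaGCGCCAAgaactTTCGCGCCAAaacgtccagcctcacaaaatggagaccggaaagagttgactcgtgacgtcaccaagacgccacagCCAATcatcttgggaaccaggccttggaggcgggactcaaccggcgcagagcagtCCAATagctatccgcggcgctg
Mcm6 (chr1:128359706-128359885, minus strand): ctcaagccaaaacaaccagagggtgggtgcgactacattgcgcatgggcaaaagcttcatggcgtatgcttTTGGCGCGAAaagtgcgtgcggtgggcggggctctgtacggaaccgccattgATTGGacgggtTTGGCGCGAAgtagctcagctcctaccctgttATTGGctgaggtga
Rrm1 (chr7:102441515-102441694, plus strand): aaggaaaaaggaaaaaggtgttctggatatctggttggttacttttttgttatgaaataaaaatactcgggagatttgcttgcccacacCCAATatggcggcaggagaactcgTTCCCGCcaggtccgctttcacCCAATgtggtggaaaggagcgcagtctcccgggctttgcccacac
The 3 G2/M genes are Top2a (topoisomerase II, which untangles DNA copies), Mki67 (the Ki-67 antigen, which coats mitotic chromosomes) and Kif11 (the kinesin that pushes spindle poles apart). Mcm5 and Mcm6 are subunits of the helicase, and Rrm1 is the large subunit of ribonucleotide reductase. In Mcm5 and Mcm6 the longer runs of capitals are E2F words of both strands that overlap. The RefSeq promoter table matched 34 of the 40 genes, and Ccna2, Aurkb, Kif20a, Tpx2, Ccne2 and Mcm4 were not matched. Over the 250 bases before the first listed start, a CHR word was found in 12 of 21 G2/M promoters (57.1%), 3 of 13 S phase promoters (23.1%) and 25.5% of all 27025 promoters. An E2F word was found in 4 G2/M promoters (19.0%), 6 S phase promoters (46.2%) and 7.97% of all promoters. CCAAT boxes were found in 19 G2/M promoters (90.5%), 8 S phase promoters (61.5%) and 34.5% of all promoters. These matches are letters in a window and were not tested as binding sites.

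Total counts were between 12576615 and 35844417 per tumor. The share of counts on Rn45s, the precursor of ribosomal RNA, was 21.9% in photoconverted tumor 4, 35.7% in control tumor 2 and 23.2% in control tumor 4, and at most 9.65% in the other 5 tumors. Of 10 epithelial marker genes, Cdx2 was at 0 counts in every tumor and the summed level of all 10 was between 3.90 and 7.25 CPM in photoconverted and between 4.52 and 6.18 CPM in control tumors. Only 3 of the 10 passed the expression filter, so these markers give little evidence of the carcinoma cells named in the labels. CPM express each count relative to the TMM-normalized size of its library.

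All 40 genes were expressed in every tumor, with no fewer than 106 counts for any gene in any tumor. Levels were compared between genes as CPM per kb of exon, over the union of all exons in GENCODE M21. Among S phase genes the highest mean over 8 tumors was that of Rrm2, the regulatory subunit of ribonucleotide reductase, at 121 CPM per kb, and the lowest was that of Ccne1, which encodes cyclin E1, at 5.08 CPM per kb. Top2a led the G2/M genes at 74.9 CPM per kb and Cenpf, a large kinetochore protein, was the lowest at 4.39 CPM per kb. Pcna lay at 89.8 CPM per kb, and the MCM subunits Mcm3, Mcm5, Mcm6 and Mcm7 lay close together between 54.9 and 65.1 CPM per kb, whereas Mcm4 was at 38.7 and Mcm2 at 27.3 CPM per kb. The exon length used for Mcm2 includes all annotated isoforms (6956 bases, against 3371 bases for its longest coding transcript), so its level per kb is a low estimate. The same holds for other genes, such as Top2a (9013 against 5221 bases), Mcm7 (4426 against 2962) and Pcna (2400 against 1518). For Mki67 and Mcm4 both lengths were equal. The order of genes per kb, and the closeness of the MCM subunits, rest in part on these lengths. Mki67, the most used proliferation marker, was at 30.4 CPM per kb.

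**Figure D1:**
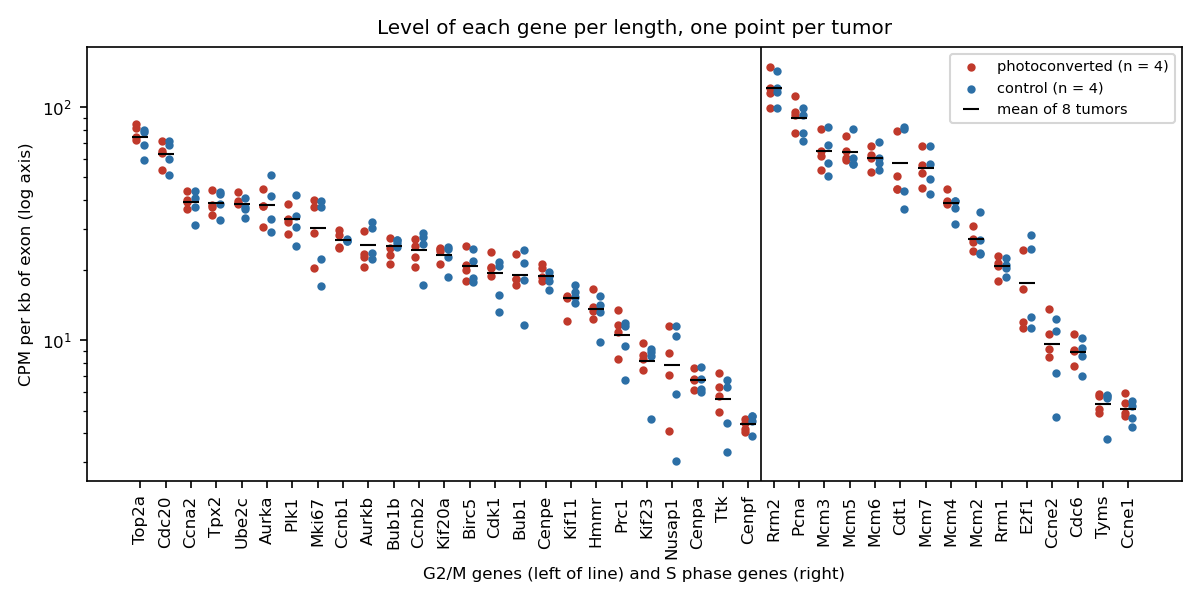
Level of each of the 40 genes in CPM per kb of exon on a log axis, with 1 point per tumor (red, photoconverted; blue, control) and a bar for the mean of 8 tumors. Within each gene the red and blue points overlap, and the genes span levels from 4.39 (Cenpf) to 121 (Rrm2) CPM per kb.

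Light exposure was not followed by a detectable change in any of the 40 genes. In edgeR's quasi-likelihood test over the 14468 genes tested, 0 of 40 had an adjusted p under 0.05, where 0% of all genes tested did. At an unadjusted p under 0.05 there were also 0 of 40, where 2.23% of all genes tested passed, and in 0 of 40 were the groups without overlap, where 1.33% of all genes tested had such groups. Over 15 alternative fits, which included DESeq2, limma and the omission of each tumor, 0 of the 40 genes had an adjusted or an unadjusted p under 0.05. The median log2 fold change was 0.027 for the G2/M genes and 0.029 for the S phase genes, against -0.014 for all genes tested. The 40 log2 fold changes lay between -0.26 (E2f1) and 0.25 (Ccne2) with a median standard error of 0.16. Without control tumor 2 the log2 fold change was -0.0099 for E2f1, 0.043 for Ccne2 and 0.11 for Cdk1. It was 0.065 for Pcna, 0.048 for Top2a and 0.060 for Mcm4. Some genes did not move toward 0, such as Nusap1, from 0.020 to -0.24, and Bub1b, from -0.12 to -0.13. The 95% interval of the difference, computed as the log2 fold change plus or minus the t quantile at 6 degrees of freedom times its standard error, held 0 for all 40 genes. It lay within a 2-fold change in either direction for 38 genes and within 1.5-fold for 31 genes. Nusap1 and E2f1 were the exceptions to the first limit. The smallest change that 4 tumors per group can show was not measured.

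**Figure D2:**
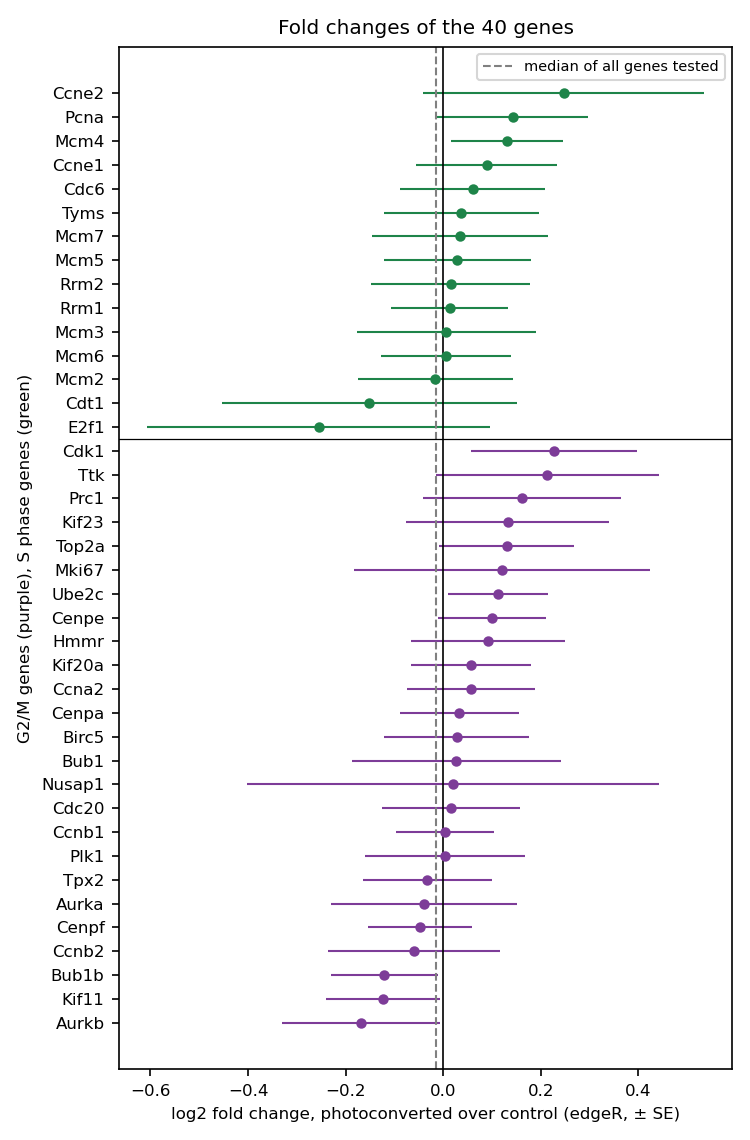
Log2 fold change (photoconverted over control, edgeR, n = 4 each) of each G2/M gene (purple) and S phase gene (green), with bars of 1 standard error. All points lie between -0.26 and 0.25, on both sides of 0, and the dashed line marks the median of all genes tested (-0.014).

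Among the mitotic kinases and cyclins, Cdk1, the kinase that drives entry into mitosis (chr10:69335146-69352938, GRCm38), had the smallest p of the list. It was at 118, 101, 102 and 92.9 CPM in photoconverted tumors 1 to 4 and 107, 65.4, 103 and 77.3 CPM in control tumors 1 to 4. The groups overlapped, and control tumors 2 and 4 were the lowest of the 8. The log2 fold change of Cdk1 was 0.23 (standard error 0.17, adjusted p = 0.999 in edgeR), with a 95% interval from -0.19 to 0.64. It was 0.11 without control tumor 2 and 0.023 in the 5 tumors of low Rn45s share. Ccnb1, which encodes cyclin B1, was the steadiest gene of the whole list, at 125, 107, 105 and 119 CPM in photoconverted and 113, 115, 112 and 114 CPM in control tumors 1 to 4. Its highest value was only 1.19 times its lowest, and its log2 fold change was 0.0042 (standard error 0.10). Its partner gene Ccnb2 fell in a wider range, from 26.3 CPM in control tumor 2 to 44.1 CPM in control tumor 3, and Ccna2 (cyclin A2) was between 127 CPM in control tumor 2 and 179 CPM in photoconverted tumor 1.

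Plk1 (Polo-like kinase 1) was at 70.6, 73.2, 63.0 and 84.5 CPM in photoconverted tumors and 56.0, 75.4, 67.5 and 92.0 CPM in control tumors 1 to 4. Aurkb, the Aurora kinase of the chromosomal passenger complex, was at 67.4, 69.1, 60.7 and 87.1 CPM in photoconverted and 65.7, 89.2, 69.9 and 94.9 CPM in control tumors 1 to 4. For both kinases, and for Aurka, the highest value was in control tumor 4, the groups overlapped, and photoconverted tumor 4 with control tumors 2 and 4 was above each of the other 5 tumors. Birc5 (survivin), another passenger protein, was at 68.0, 72.0, 61.1 and 86.0 CPM in photoconverted and 60.6, 74.2, 62.9 and 84.0 CPM in control tumors 1 to 4, with the same 3 tumors above the other 5 and the highest value in photoconverted tumor 4.

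Genes of the spindle checkpoint and of anaphase did not share 1 pattern. Cdc20, the activator of the anaphase-promoting complex, was at 119, 121, 101 and 134 CPM in photoconverted and 95.7, 129, 112 and 133 CPM in control tumors 1 to 4. The checkpoint kinase Bub1b was at 106, 99.8, 90.6 and 118 CPM in photoconverted and 108, 112, 115 and 116 CPM in control tumors 1 to 4, with the second smallest p of the G2/M genes (log2 fold change -0.12, standard error 0.11, adjusted p = 0.999 in edgeR). Bub1b lay between 90.6 CPM in photoconverted tumor 3 and 118 CPM in photoconverted tumor 4, which enclose all control tumors. Bub1 and Ttk, 2 other checkpoint kinases, varied more and were lowest in control tumor 2, at 50.8 and 16.3 CPM, against at least 74.9 and 21.9 CPM in the other tumors. Ube2c, the ubiquitin-conjugating enzyme of anaphase, ranged from 87.2 to 113 CPM.

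Kinesins and spindle proteins included both a steady gene and the most variable gene of the list. Kif11 was at 114, 116, 90.8 and 113 CPM in photoconverted and 115, 129, 120.1 and 108 CPM in control tumors 1 to 4, so that photoconverted tumor 3 was the lowest and control tumor 2 the highest. Nusap1, a microtubule-binding protein of the spindle (chr2:119618298-119651244, GRCm38), was at 46.8, 28.7, 35.9 and 16.5 CPM in photoconverted and 46.9, 12.3, 42.4 and 24.0 CPM in control tumors 1 to 4. Control tumor 1 had 3.81 times the Nusap1 level of control tumor 2, the groups overlapped, and the log2 fold change was 0.020 (standard error 0.42, 95% interval -1.01 to 1.05). Prc1, Kif23 and Hmmr were likewise lowest in control tumor 2 and highest in photoconverted tumor 1, whereas Kif20a and Tpx2 varied by no more than 1.34 times between the highest and lowest tumor.

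At centromeres, Cenpf was at 68.0, 71.3, 62.6 and 64.4 CPM in photoconverted and 59.7, 73.1, 69.3 and 73.2 CPM in control tumors 1 to 4, a range with overlapping groups and with the highest value in control tumor 4. Cenpa, the histone H3 variant of the centromere, ranged from 35.3 to 45.0 CPM, and the kinesin Cenpe from 141 to 183 CPM. Top2a, the most abundant member by counts, was at 762, 735, 674 and 651 CPM in photoconverted and 709, 533, 718 and 618 CPM in control tumors 1 to 4, and was lowest in control tumor 2 (log2 fold change 0.13, standard error 0.14).

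After Nusap1, Mki67 was the most variable of the G2/M genes. It was at 403, 291, 376 and 205 CPM in photoconverted and 398, 172, 377 and 226 CPM in control tumors 1 to 4. Photoconverted tumor 4 and control tumors 2 and 4 were the 3 lowest, and the highest tumor had 2.34 times the level of the lowest. The log2 fold change between the groups was 0.12 (standard error 0.30, 95% interval -0.62 to 0.86), and it turned to -0.065 without control tumor 2 and to -0.012 without photoconverted tumor 1. The SD of log2 CPM over the 8 tumors was 0.49 for Mki67, against 0.17 for Top2a, 0.23 for Plk1 and 0.082 for Ccnb1.

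**Figure D3:**
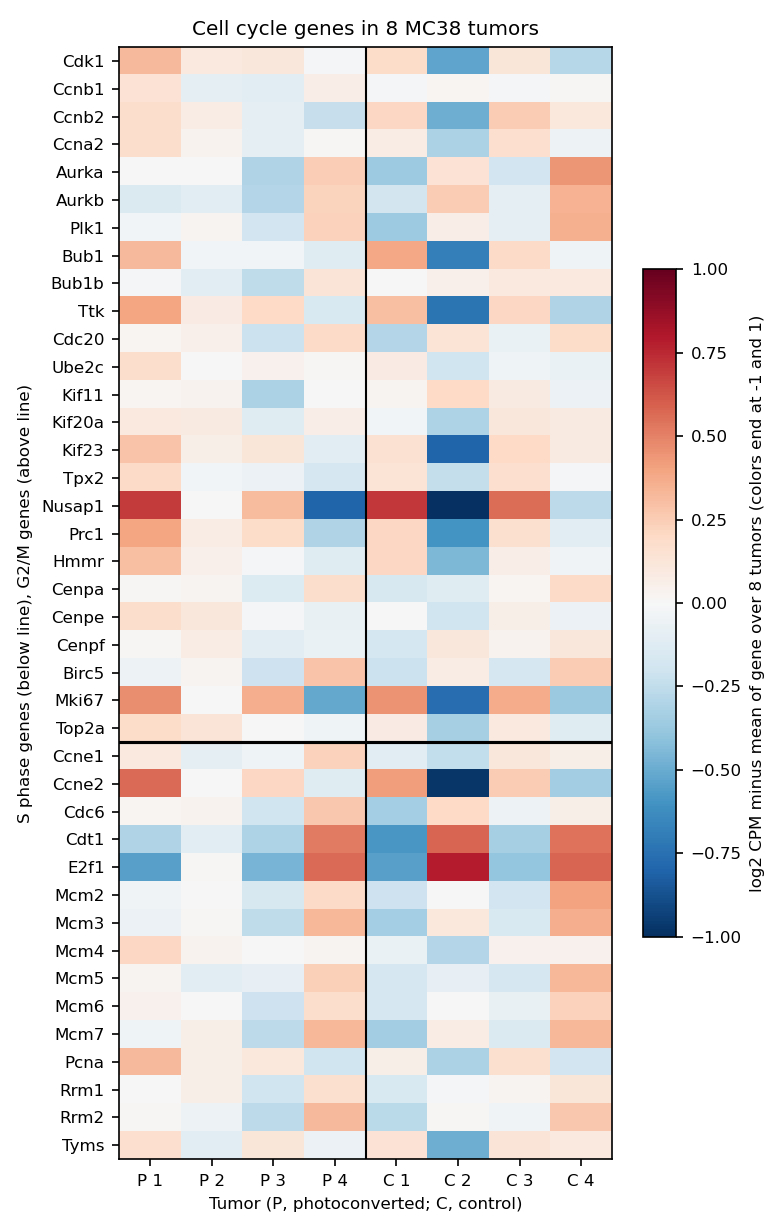
Log2 CPM of each gene minus its mean over the 8 tumors (color, red above and blue below the mean), for G2/M genes above and S phase genes below the black line. Columns P 1 to P 4 and C 1 to C 4 show no common difference, whereas C 2 is the bluest column of the G2/M genes and P 4, C 2 and C 4 share red cells in Cdt1 and E2f1 and blue cells in Mki67 and Nusap1.

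Among the S phase genes that start replication, E2f1, the activating transcription factor, had the lowest log2 fold change of the list. E2f1 was at 35.8, 52.4, 37.7 and 77.2 CPM in photoconverted and 35.7, 89.6, 39.8 and 77.8 CPM in control tumors 1 to 4. The groups overlapped widely, since photoconverted tumor 4 and control tumors 2 and 4 had the 3 highest values and the other 5 tumors were at or below 52.4 CPM. Its log2 fold change was -0.26 (standard error 0.35), and 0.15 in the 5 tumors of low Rn45s share (under 10%). Cdt1, the licensing factor, had the same 3 tumors highest, at 247, 258 and 252 CPM against at most 159 CPM in the others.

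Cdc6, which loads the helicase with Cdt1, was at 47.2, 47.6, 40.4 and 55.8 CPM in photoconverted and 36.7, 53.4, 44.9 and 48.3 CPM in control tumors 1 to 4. Ccne1 was at 14.4, 12.6, 13.0 and 15.8 CPM in photoconverted and 12.4, 11.3, 14.6 and 14.0 CPM in control tumors 1 to 4. Neither gene separated the groups. Ccne2 (cyclin E2) was lowest in control tumor 2 (16.4 CPM) and highest in photoconverted tumor 1 (47.7 CPM), with a log2 fold change of 0.25 (standard error 0.29). The cyclin E genes thus differed in stability, with an SD of log2 CPM of 0.15 for Ccne1 and 0.49 for Ccne2.

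The 6 MCM subunits, which form 1 ring, had log2 fold changes between -0.016 (Mcm2) and 0.13 (Mcm4). Mcm2 was at 184, 189, 168 and 215 CPM in photoconverted and 163, 188, 165 and 248 CPM in control tumors 1 to 4. Mcm5 was at 260.2, 237, 241 and 300.1 CPM in photoconverted and 227, 241, 227 and 321 CPM in control tumors 1 to 4. In both, control tumor 4 had the highest value and photoconverted tumor 4 the next highest, as in Mcm3 and Mcm6, while in Mcm7 these 2 tumors were nearly equal at the top. Mcm4 was the exception, at 159, 142, 138 and 141 CPM in photoconverted and 132, 113, 143 and 142 CPM in control tumors 1 to 4. It had the smallest p of the S phase genes (standard error 0.12, adjusted p = 0.999 in edgeR). All 6 MCM genes had an SD of log2 CPM below the median of all genes tested.

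For DNA synthesis itself, Pcna was at 267, 222, 229 and 186 CPM in photoconverted and 222, 171, 239 and 187 CPM in control tumors 1 to 4, lowest in the same 3 tumors in which E2f1 was highest (log2 fold change 0.14, standard error 0.15, adjusted p = 0.999 in edgeR). Rrm2 was at 334, 320.3, 276 and 414 CPM in photoconverted and 275, 334, 324 and 398 CPM in control tumors 1 to 4, highest in photoconverted tumor 4 and control tumor 4. Rrm1 was the steadiest S phase gene, at 229, 237, 198 and 254 CPM in photoconverted and 205, 225, 233 and 248 CPM in control tumors 1 to 4 (log2 fold change 0.013, standard error 0.12). The subunits of the reductase thus differed in their spread over tumors, with an SD of log2 CPM of 0.21 for Rrm2 and 0.12 for Rrm1. Tyms (thymidylate synthase) ranged from 22.9 CPM in control tumor 2 to 36.0 CPM in photoconverted tumor 1.

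The median SD of log2 CPM was 0.20 for the G2/M genes and 0.21 for the S phase genes, against 0.30 for all genes tested, and 31 of the 40 genes lay below that median. The members were also more abundant than the typical gene, with a median of 101 CPM against 23.2 CPM, and the part of abundance in their stability was not tested. In the 5 tumors of low Rn45s share the median SD was 0.11 for G2/M, 0.12 for S phase and 0.17 for all genes tested.

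A score of each class was computed in each tumor as the mean over its genes of log2 CPM minus the mean of the gene over 8 tumors. The G2/M score was 0.17, 0.027, -0.048 and -0.043 in photoconverted and 0.056, -0.28, 0.093 and 0.020 in control tumors 1 to 4, with control tumor 2 far below the rest. The S phase score was 0.032, -0.014, -0.13 and 0.20 in photoconverted and -0.18, -0.043, -0.052 and 0.19 in control tumors 1 to 4, with photoconverted tumor 4 and control tumor 4 above the rest. Group means differed by 0.054 for G2/M and 0.042 for S phase, both smaller than the SD within either group, which was 0.10 and 0.17 for G2/M and 0.14 and 0.15 for S phase (n = 4 each). Since the list was chosen with results known, no test of the scores was made.

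The S phase score minus the G2/M score was -0.14, -0.041, -0.085 and 0.24 in photoconverted and -0.23, 0.23, -0.15 and 0.17 in control tumors 1 to 4. It was positive in photoconverted tumor 4 and control tumors 2 and 4 and negative in the other 5 tumors, which is the same division as that by Rn45s share. The groups of the study overlapped, with means of -0.0062 ± 0.17 in photoconverted and 0.0062 ± 0.23 in control tumors (SD, n = 4 each). Among the 5 tumors with a low Rn45s share the difference was negative in photoconverted tumors 1 to 3 and in control tumors 1 and 3. The 3 remaining tumors hold only 1 photoconverted tumor.

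**Figure D4:**
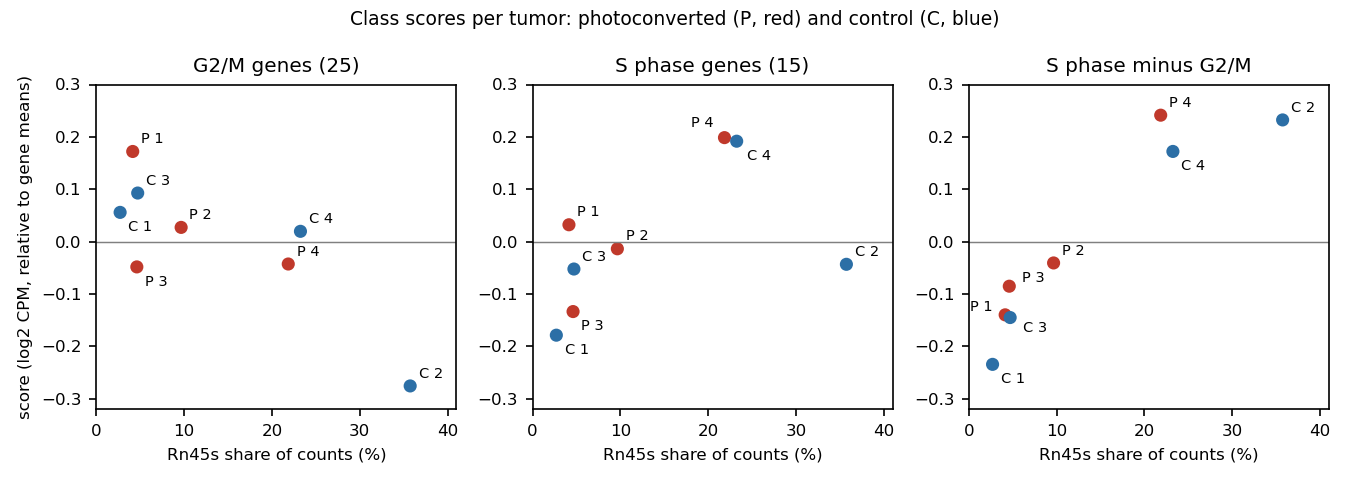
Score of the 25 G2/M genes, of the 15 S phase genes and their difference (y axes, log2 CPM relative to gene means) against the Rn45s share of counts (x axes, %), with 1 point per tumor (P, photoconverted; C, control). The difference is above 0 in P 4, C 2 and C 4, whose Rn45s shares are 21.9%, 35.7% and 23.2%, and below 0 in the other 5 tumors.

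The tumors rich in Rn45s separated members of the list in both directions, as they did all genes tested. Of the 40 genes, 11 were lower and 10 higher in all 3 of these tumors than in each of the other 5. That was 52.5%, against 44.4% of all genes tested. The share lower was 36% of G2/M, 13.3% of S phase and 21.0% of all genes tested. The share higher was 20% of G2/M, 33.3% of S phase and 23.4% of all genes tested. The 9 lower G2/M genes were Cdk1, Bub1, Ttk, Nusap1, Prc1, Hmmr, Cenpe, Mki67 and Top2a, and the 5 higher ones were Aurka, Aurkb, Plk1, Cdc20 and Birc5. Of the S phase genes, Ccne2 and Pcna were lower and Cdc6, Cdt1, E2f1, Mcm3 and Mcm7 were higher. The mean log2 CPM in the 3 tumors minus that in the other 5 was -1.21 for Nusap1, -0.87 for Mki67 and -0.77 for Ccne2 at one end, and 0.88 for Cdt1 and 1.03 for E2f1 at the other. The median of this difference was -0.18 for G2/M, 0.26 for S phase and -0.032 for all genes tested. These tumors were set apart by their Rn45s share of counts and hold both groups, and this division was made after the Rn45s shares were known. What sets that share was not tested.

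Base composition moved with this difference. The median GC content of the longest coding transcript was 43.0% for the 11 lower genes and 53.0% for the 10 higher genes, against 47.3% for all 40. Over all genes tested, those lower in the 3 tumors had a median GC of 44.4% and those higher 55.3%. The extremes were Ccne2 at 36.3% and Cdt1 and E2f1 at 58.8% and 58.3%. The S phase genes had a higher median GC (49.4%) than the G2/M genes (46.6%). Nusap1 and Mki67, the genes with the lowest differences, had a GC of 41.8% and 46.6%. The Pearson correlation of GC with the difference was 0.71 over the 40 genes, 0.54 over G2/M and 0.86 over S phase genes. It was 0.54 over the 13108 genes tested that had a GC value. The part of base composition in the division of the tumors was not tested.

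**Figure D5:**
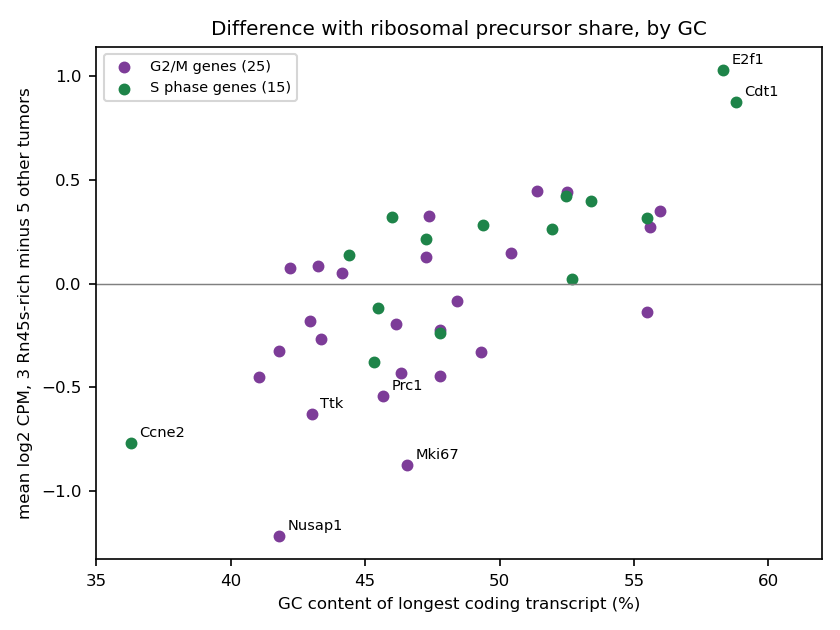
Mean log2 CPM in the 3 tumors rich in Rn45s minus that in the other 5 tumors (y axis) against the GC content of the longest coding transcript (x axis, %) for the G2/M genes (purple) and S phase genes (green). Ccne2, of lowest GC (36.3%), lies at -0.77, and the genes of highest GC, Cdt1 and E2f1, lie at 0.88 and 1.03.

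Control tumor 2 held the lowest value of the 8 tumors in 15 of 25 G2/M genes and in 5 of 15 S phase genes, and photoconverted tumor 1 held the highest in 12 G2/M genes and 4 S phase genes. How often these tumors were extreme over all genes tested was not counted, so the counts cannot be read as particular to cell cycle genes. Control tumor 2 also had the highest summed level of 10 fibroblast markers, 12619.7 CPM against 3675 to 4946 CPM in photoconverted tumors and 3467 to 4652 CPM in the other control tumors, with none of the 10 markers at 0. That sum was carried by the collagens Col1a1, Col1a2 and Col3a1 (4607, 2585 and 5063 CPM). Pdgfrb and Thy1 were also highest of the 8 tumors there, at 79.3 and 47.3 CPM. Dcn, Lum, Pdgfra, Postn and Fap were at 40.2, 9.63, 93.4, 91.4 and 2.78 CPM, below 5 of the other 7 tumors in each case. Control tumor 2 also had the highest Rn45s share and the lowest total count. The part of these in its low G2/M values was not tested. Without control tumor 2, the median SD over tumors fell from 0.20 to 0.15 for the G2/M genes and from 0.21 to 0.20 for the S phase genes. For all genes tested it fell from 0.30 to 0.27.

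Of 32 other S phase genes, 37 other G2/M genes, 6 G1 cyclins and kinases, 13 CDK inhibitors and pocket proteins and 13 E2F and DREAM regulators, all passed the expression filter, and 0 in any list had an adjusted p under 0.05. At an unadjusted p under 0.05 there was 1 gene, Btg2, over the 5 lists, where 2.23% of all genes tested passed. The median log2 fold change was 0.035 for the other S phase genes (19 above and 13 below 0), 0.0011 for the other G2/M genes (19 above and 18 below 0), -0.081 for the G1 cyclins and kinases, -0.035 for the inhibitors and 0.0060 for the regulators.

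Btg2, an antiproliferative gene that p53 and growth factors are known to induce, was at 33.2, 35.7, 46.8 and 16.9 CPM in photoconverted and 24.0, 23.0, 20.8 and 14.9 CPM in control tumors 1 to 4. Photoconverted tumors 1 to 3 were above all control tumors, and photoconverted tumor 4 was below 3 of the 4 controls. The edgeR log2 fold change of Btg2 was 0.68, with a standard error of 0.29 and an adjusted p = 0.999. Cdkn2c, which encodes the CDK4/6 inhibitor p18, was at 13.6, 16.4, 13.9 and 20.6 CPM in photoconverted and 15.6, 29.8, 17.6 and 21.9 CPM in control tumors 1 to 4, with overlapping groups and a log2 fold change of -0.39 (standard error 0.23). E2f2, an activator like E2f1, was at 18.2, 20.6, 17.5 and 25.7 CPM in photoconverted and 17.4, 33.1, 23.8 and 28.3 CPM in control tumors 1 to 4, highest in control tumor 2, with a log2 fold change of -0.32 (standard error 0.21).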

How the data were processed

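RNA-seq was performed on 8 whole tumors, 4 per group. Per the labels, a SMARTER stranded total RNA kit was used, while the study's methods name a TruSeq stranded total RNA kit. The authors deposited raw counts per gene and a table of normalized values, used here as a signal, which equals the deposited counts divided by DESeq2 size factors (largest relative deviation 5e-15). The submitters' processing notes name CASAVA, FastQC, Trim Galore, HISAT2, featureCounts, DESeq2 and build mm10, without versions, and the gene annotation is not given in the sources used here.

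Groups were compared with edgeR 4.0.16 (TMM normalization, filterByExpr, quasi-likelihood F test, Benjamini-Hochberg adjustment over 14468 genes, threshold 0.05) in R 4.3.3. Per-gene log2 CPM used a prior count of 2. DESeq2 1.42.0, limma 3.58.1 (log2 of the deposited normalized values plus 1), other scaling and filters, omission of Rn45s, omission of tumors and a replicate block were alternatives. On simulated counts of 14468 genes for the photoconverted against control comparison, 180 of 200 genes changed 4-fold were recovered by edgeR, with 7 false calls. DESeq2 recovered 186 with 51 false calls, and limma 177 with 9. Genes varied independently in the simulation and smaller changes were not simulated, so it cannot show whether changes as small as those of the members would be found.

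Tumors with the same replicate number in the labels deviated together from their group means (correlation 0.107 to 0.623 over genes), so the numbers were taken as pairs for the block. Pairs with other numbers lay between -0.60 and 0.48, and some were as high, such as photoconverted 3 with control 1 (0.48) and photoconverted 1 with control 3 (0.46). Correlations were also positive between photoconverted 4 and control 2 (0.35), which share a high Rn45s content with control 4. Of the same-number pairs, number 4 (0.62) was high in Rn45s in both tumors, and numbers 1 (0.60) and 3 (0.41) were low in both. Number 2, with the lowest value (0.107), had unlike Rn45s shares of 9.65% (photoconverted) and 35.7% (control). The part of Rn45s share in these correlations was not tested. The labels do not say what the numbers share. Each replicate is a labelled tumor, and no pair of tumors of a group agreed within sampling noise. Counts of a member in a tumor ran from 106 to 30464, and counting error is part of the spread over tumors of the lowest genes, such as Ccne1.

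The members and lists were chosen with earlier results of these data known. Values in every tumor are given for 17 members picked by role, for the 2 genes of smallest p and the lowest and highest SD in each phase, and for genes of smallest p in the wider lists, of which 1 is not reported here. Ccnb2, Ccna2, Bub1, Ttk, Ube2c, Prc1, Kif23, Hmmr, Kif20a, Tpx2, Cenpa, Cenpe, Aurka, Cdt1, Ccne2, Tyms, Mcm3, Mcm6 and Mcm7 were singled out after their values were seen. Gene coordinates, exon lengths and GC content came from GENCODE M21 (GRCm38), and promoter sequences from RefSeq (GRCm38.p6).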

Additional observations from a re-analysis of the deposited data

Results flagged for a closer look

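In 5 of 86 sets of 4 tumors, 1 tumor stood apart from the other 3 by Dixon's ratio at the 95% level, where chance gives about 1 in 20 (4.3). Photoconverted tumor 3 was low in Kif11 (90.8 CPM, nearest 113 CPM) and in Kif20a (92.3 CPM, nearest 105 CPM). Control tumor 2 was low in Kif23 (36.4 CPM, nearest 67.4 CPM) and in Tyms (22.9 CPM, nearest 34.4 CPM). Control tumor 4 was high in Mcm5 (321 CPM, nearest 241 CPM). The causes were not tested.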

How the results depend on the processing

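Over all genes tested, edgeR called 0 of 14468 genes (322 at an unadjusted p under 0.05). The DESeq2 Wald test, run without the expression filter, called 24 of 20558. The 5 tumors of low Rn45s share (under 10%) gave 42 of 15252 (37 higher). Omission of 1 tumor gave 0 to 11 (11 of 14770 without photoconverted tumor 4). The sets of genes tested thus differed between these fits. None of these calls was among the 40 genes. In these 5 tumors the log2 fold change turned to -0.12 for Mki67, -0.27 for Nusap1, 0.15 for E2f1, -0.0035 for Ccnb1 and -0.061 for Ccne2, and the median SD over tumors was 0.115 for G2/M and 0.116 for S phase genes. With 1 tumor omitted, the log2 fold change ranged from -0.065 to 0.30 for Mki67, from -0.24 to 0.27 for Nusap1, from -0.53 to -0.0099 for E2f1, from 0.043 to 0.45 for Ccne2, from 0.11 to 0.33 for Cdk1, from -0.042 to 0.078 for Rrm1 and from -0.045 to 0.042 for Ccnb1. The median log2 fold change ranged from -0.019 to 0.090 for G2/M and from -0.051 to 0.11 for S phase genes. With the replicate block, 0 genes were called over all genes tested, as were 0 of the 40 genes, and the block changed no call. The causes of these shifts were not tested. The 5 tumors hold 3 photoconverted and 2 control tumors.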
